A study of Caenorhabditis elegans with 2 samples.

Results

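The peaks described here are promoter peaks of DSC-1 that fall in the upstream regions of more than 1 gene at once. They were taken from the authors' list of 6283 reproducible peaks on the ce11 genome build. A summit was counted as shared when it lay on an autosome, within 1000 bp upstream to 200 bp downstream of the outermost annotated start of 2 or more protein-coding genes. Summits within 500 bp of a tRNA gene start were left out, which removed 6. The rule kept 630 peaks, which were 13.1% of the 4820 autosomal peaks (95% exact interval 12.1 to 14.05) and 32.2% of the 1957 autosomal peaks in a promoter window. The other 1327 autosomal promoter peaks had their summit in the window of a single gene and are called single-gene peaks. Of the 630 shared peaks, 587 lay at divergent genes, whose starts point away from each other. A further 41 lay at genes on the same strand. The remaining 2 lay where opposite-strand genes overlap at their 5′ ends.

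DSC-1 is a paired-like homeodomain transcription factor, known for its role in enteric muscles during the defecation motor program. Chromatin immunoprecipitation followed by sequencing recovers DNA cross-linked to a protein, and a peak marks where that DNA piles up. In the compact genome of Caenorhabditis elegans many genes are transcribed away from each other out of 1 short intergenic region, which can act as a promoter in both directions. Other genes lie in operons, runs of same-strand genes transcribed together from an upstream promoter, and many transcripts are trans-spliced, so that annotated starts can lie downstream of the true start of transcription.

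The worms were of strain OP522, with the allele unc-119(tm4063) on chromosome III and the transgene wgIs522, and carried DSC-1 with GFP and FLAG at its carboxy terminus. Whole hermaphrodites of the first larval stage (L1) were collected 6 hours after synchronization by starvation following bleaching. An anti-GFP antibody was used, and DNA was sheared by sonication. There was 1 group with 2 biological replicates and no comparison between conditions; the control named in the labels was not analysed here. Whole animals were pooled, so the cells in which a site was occupied cannot be told apart, and the strain is a single transgenic line. Replicate 1 had 26482 listed peaks and replicate 2 had 30000. Read counts were not given, so the depth behind a peak is unknown. Peaks were ranked by the authors' signal value, 1 being the strongest; the scale of this value is not stated. No untagged sample was analysed here, and whether a peak depends on DSC-1 was not tested.

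The sequences under some of the strongest divergent summits show the setting of these peaks. Each line gives the summit base and 50 bases to either side of it, on the plus strand of the WBcel235 reference (the same build as ce11), outside any annotated exon. Capitals mark copies, on either strand, of 4 words whose frequency is given further on. These are the palindrome GCGCGC, a run of C and G that reads CCGCCC on 1 strand, a repeat of CT that reads CTCTCT, and a purine-rich word that reads GAGACG. The first 5 are strong divergent summits, at ranks 9, 15, 23, 26 and 57. Divergent peaks ranked between these, such as that at rank 27, are not shown. The sixth, at ska-3 and rps-12, was chosen because it is strong and holds GCGCGC.
rpl-20 and Y17G9B.5, chrIV:4750033-4750133: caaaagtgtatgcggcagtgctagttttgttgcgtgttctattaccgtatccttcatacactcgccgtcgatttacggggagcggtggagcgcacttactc
K01G5.10 and tasp-1, chrIII:10759197-10759297: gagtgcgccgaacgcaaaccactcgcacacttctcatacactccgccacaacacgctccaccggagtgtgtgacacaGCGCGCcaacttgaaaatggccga
rpl-15 and K11H12.8, chrIV:654875-654975: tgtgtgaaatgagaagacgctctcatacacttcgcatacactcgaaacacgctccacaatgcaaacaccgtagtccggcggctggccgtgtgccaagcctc
Y22D7AL.10 and hsp-60, chrIII:1619082-1619182: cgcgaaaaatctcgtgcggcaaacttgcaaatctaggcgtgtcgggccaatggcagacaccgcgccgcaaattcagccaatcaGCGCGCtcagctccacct
cct-8 and Y55F3AR.2, chrIV:1094306-1094406: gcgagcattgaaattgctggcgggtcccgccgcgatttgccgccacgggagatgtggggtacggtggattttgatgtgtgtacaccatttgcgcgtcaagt
ska-3 and rps-12, chrIII:5679089-5679189: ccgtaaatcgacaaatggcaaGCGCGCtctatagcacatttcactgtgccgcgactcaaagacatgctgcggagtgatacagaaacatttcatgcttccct

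The next 3 divergent summits were chosen as strong peaks that hold CCGCCC or GAGACG. In the first of them a copy of CTCTCT on the other strand overlaps the copy of GAGACG.
drr-2 and set-16, chrIII:13643666-13643766: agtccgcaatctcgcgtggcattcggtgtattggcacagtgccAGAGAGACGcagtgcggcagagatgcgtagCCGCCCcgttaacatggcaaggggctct
efl-1 and fbxa-90, chrV:16965811-16965911: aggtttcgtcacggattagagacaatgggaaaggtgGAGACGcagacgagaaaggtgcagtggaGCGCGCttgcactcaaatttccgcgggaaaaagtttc
mrps-7 and Y57G11C.3, chrIV:14767859-14767959: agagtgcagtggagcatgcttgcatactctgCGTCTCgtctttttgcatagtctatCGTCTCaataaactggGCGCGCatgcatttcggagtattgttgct
A further 3 same-strand summits are shown for comparison.
F32D8.13 and sec-61.G, chrV:10897323-10897423: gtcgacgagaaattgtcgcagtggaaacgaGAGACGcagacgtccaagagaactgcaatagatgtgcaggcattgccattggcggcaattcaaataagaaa
ddp-1 and ttc-7, chrIII:1859689-1859789: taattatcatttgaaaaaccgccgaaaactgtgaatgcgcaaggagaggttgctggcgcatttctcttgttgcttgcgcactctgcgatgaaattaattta
rps-28 and Y41D4B.4, chrIV:1659206-1659306: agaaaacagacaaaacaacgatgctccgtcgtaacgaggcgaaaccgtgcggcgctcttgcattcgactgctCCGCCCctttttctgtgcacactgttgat

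Shared promoter sequence held summits more densely than promoter sequence of a single gene. Sequence covered by the windows of 2 or more genes came to 2.2 Mb of the autosomes and held 286 summits per Mb, against 82.3 per Mb in 16.1 Mb covered by 1 window, a ratio of 3.48. A base in shared windows is near 2 starts and mostly closer to a start, and the part of this in the ratio was not tested. Of 2833 autosomal divergent pairs whose windows overlap, 602 held a shared summit (21.2%). Of 845 same-strand pairs with overlapping windows, 81 did (9.59%). A divergent shared peak with 3 or more genes counts toward each of its pairs. By gene, 1244 of 17242 autosomal protein-coding genes had a shared summit (7.21%), and among the 5197 genes in such a divergent pair 1172 did (22.6%). A summit of either class was found in the window of 25.2% of those 5197 genes (95% exact interval 24.1 to 26.4). Among 11010 genes whose window overlaps no other gene's, the share was 9.28% (8.75 to 9.84). A shared summit counts for every gene whose window holds it, which cannot happen for these 11010 genes. The part of this in the difference was not tested.

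Pairs on chromosomes III and I held shared summits most often. The share of divergent pairs with a summit was 31.4% on chromosome III (148 of 471) and 28.2% on chromosome I (143 of 507). It was 20.7% on chromosome IV, 16.9% on chromosome II and 13.9% on chromosome V (106 of 763). The intervals of chromosomes III and I overlapped each other and lay above those of the other chromosomes, although the upper bound on chromosome IV, 24.4%, reached the lower bound on chromosome I, 24.3%.

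The distance between the starts went with the share of pairs that held a summit. Of 242 pairs with starts under 200 bp apart, 19.8% held one (95% exact interval 15 to 25.4). The share was highest at 200 to 399 bp, at 37.9% of 457 pairs (33.4 to 42.5), and was 34.7% at 400 to 599 bp. It was 30% at 600 to 799 bp, 22.3% at 800 to 999 bp, 11.5% at 1000 to 1499 bp and 2.27% at 1500 to 2000 bp. The replicates gave similar shares. At 200 to 399 bp each gave 37.4%, and under 200 bp they gave 21.1% and 20.7%. The sequence of a pair in which a shared summit can fall grows until the starts are 800 bp apart and shrinks beyond that. Per Mb of that sequence there were 371 summits in pairs under 200 bp, 562 at 200 to 399 bp, 405 at 400 to 599 bp and 102 at 1500 to 2000 bp. Pairs with starts 200 to 599 bp apart stood highest by either measure.

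**Figure D1:**
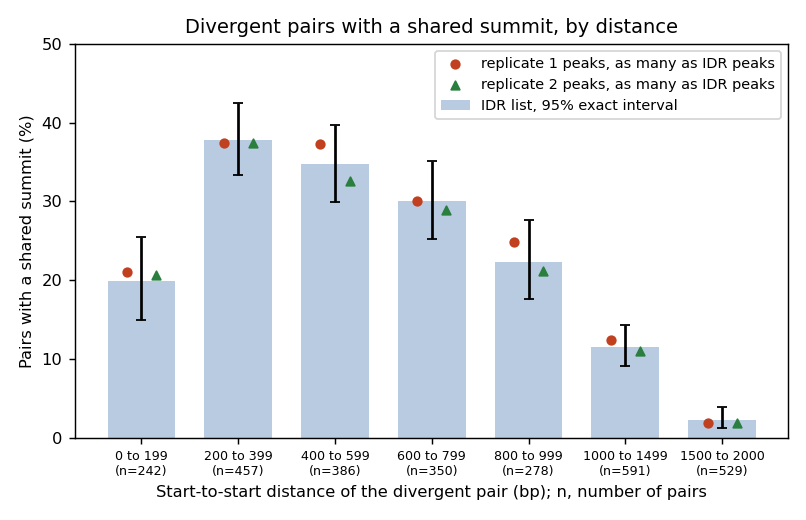
Share of autosomal divergent pairs with a shared summit, in percent, against the distance between their starts in bp. Bars are the reproducible peak list with 95% exact intervals, circles and triangles are the strongest peaks of each replicate, and the highest bar is 37.9% at 200 to 399 bp.

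The rule itself limits where a divergent summit can fall, since it admits at most 200 bp past either start and at most 1000 bp upstream of both. The wider the interval, the more of the admitted sequence lies between the starts and near the middle, and the following positions are a description within that limit. In 536 of 587 divergent peaks (91.3%, 95% exact interval 88.7 to 93.5) the summit lay between both starts. When this interval was cut into 3 equal parts, 247 of 536 summits (46.1%, 41.8 to 50.4) fell in the middle part. The part next to the minus-strand start held 147 and the part next to the plus-strand start held 142, so neither strand was favoured beyond counting error. The middle part held 55.2% of summits between starts 400 to 599 bp apart and 26.4% between starts 800 to 999 bp apart. At 1500 to 2000 bp all 9 summits were in the middle part, which is where the rule places the admitted sequence. The median start-to-start distance was 499 bp, with quartiles of 310 and 756 bp, against 785 bp over all divergent pairs with overlapping windows. The median distance from the summit was 143 bp to the nearer start and 356 bp to the farther one. At single-gene peaks the median distance to the start was 260 bp. A summit 100 to 300 bp upstream of at least 1 start was found in 69.3% of divergent peaks (65.4 to 73.1) and 35.7% of single-gene peaks (33.1 to 38.4). At 21.6% of divergent peaks this held for 2 or more starts at once. A position near a start is easier to meet with 2 starts than with 1, and its part in this difference was not tested. By gene model, 90.6% of divergent summits lay outside genes and 36 lay in a 5′ UTR.

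**Figure D2:**
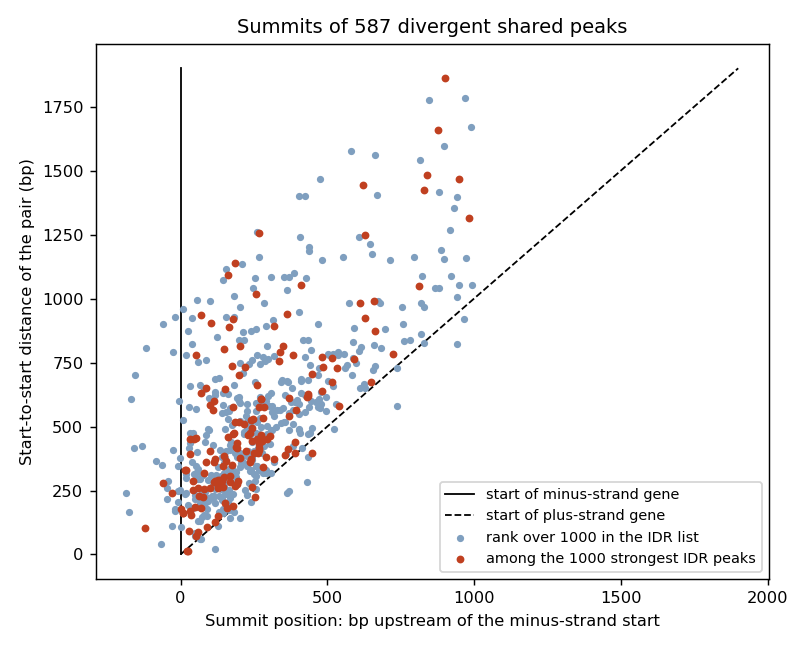
Position of each of the 587 divergent summits, as bp upstream of the minus-strand start (horizontal axis), against the start-to-start distance in bp (vertical axis). Lines mark the starts and red points the 160 divergent peaks among the 1000 strongest; 536 points lie between the lines.

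The position was stable between replicates. In 578 divergent peaks that overlapped a peak in each replicate list, the same gene was the nearer by both replicate summits in 547 (94.6%). The median distance between the replicate summits was 12 bp, and 17 bp at single-gene peaks. A peak in the list of replicate 1 overlapped 586 of 587 divergent peaks and 40 of 41 same-strand peaks. For replicate 2 these counts were 579 and 40. Both replicates went into the choice of the reproducible peaks, and the overlap is not independent of it.

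Shared peaks ranked higher than single-gene peaks in each list. The median rank in the reproducible list was 2431 for divergent, 1711 for same-strand and 3051 for single-gene peaks. In replicate 1 the medians were 2066, 1462 and 2955, and in replicate 2 they were 2425, 1797 and 2918. The quartiles overlapped widely: divergent peaks ran from 920 to 3952 and single-gene peaks from 1434 to 4676. Shared peaks were 21 of the 42 autosomal promoter peaks among the 100 strongest (50%, 95% exact interval 34.2 to 65.8). They were 94 of 219 among the 500 strongest and 174 of 408 among the 1000 strongest (42.6%, 37.8 to 47.6), against 32.2% of all autosomal promoter peaks. Across the peaks found in both replicate lists, the Spearman correlation of the replicate signals was 0.895 over 578 divergent peaks, 0.928 over 39 same-strand peaks and 0.854 over 1311 single-gene peaks. These points share both libraries and were selected on them. At 611 of the 630 shared peaks the q-value was at the top value of the list, so only the signal value separates them.

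**Figure D3:**
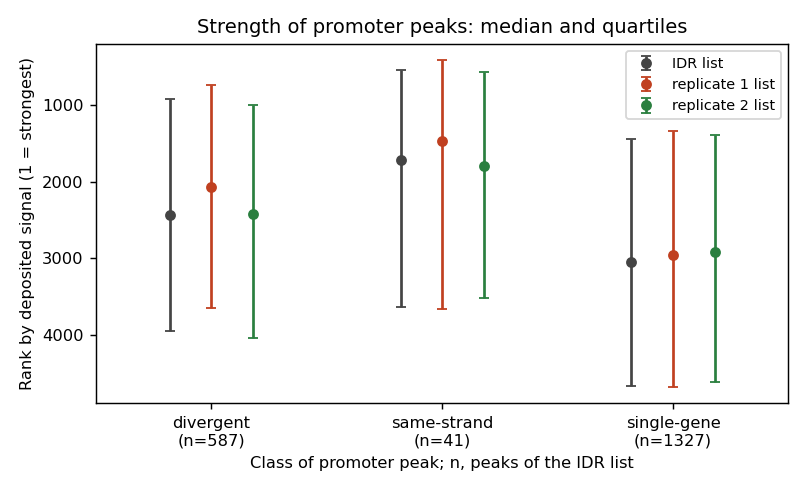
Rank by the authors' signal (1 is the strongest, at the top) for divergent, same-strand and single-gene autosomal promoter peaks. Points are medians and bars run between quartiles, in the reproducible list and in each replicate list; the medians of both shared classes stand above those of single-gene peaks in all 3.

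The strongest divergent peak lay between rpl-20, a protein of the large ribosomal subunit, and Y17G9B.5 on chromosome IV. It ranked 9 in the reproducible list, 7 in replicate 1 and 12 in replicate 2, with its summit 305 bp upstream of rpl-20 and 157 bp upstream of Y17G9B.5. The next, at rank 15 (16 and 14 in the replicates), had its summit 60 bp upstream of tasp-1, the taspase gene, and 725 bp upstream of K01G5.10. The peak between rpl-15 and K11H12.8 ranked 23 (31 and 19), at 349 and 465 bp. The peak at rank 26 (17 and 29) was 610 bp upstream of hsp-60, the mitochondrial chaperonin, but 203 bp upstream of its neighbour Y22D7AL.10. These 4 summits lay closer to the neighbour than to the ribosomal or chaperone gene in 2 of 3 pairs that have such a gene.

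Further down, the peak at rank 27 (22 and 27) lay in a wide interval of 1423 bp between tag-340 and nhl-2, a cofactor of microRNA silencing. At rank 31 (36 and 33) the summit was 253 bp from rps-1, of the small ribosomal subunit, and 515 bp from ifet-1, a translational repressor of the germ line. At rank 39 (46 and 40) it was 31 bp from rpl-12 and 362 bp from lin-54, a DNA-binding member of the DREAM complex. Each of these peaks held nearly the same rank in both replicates. The peak between F56G4.6 and wbp-4 ranked 47 (23 and 84), and that between dnj-13, a J-domain co-chaperone, and F54D5.9 ranked 54 (37 and 78). The peak between the chaperonin subunit gene cct-8 and Y55F3AR.2 ranked 57 (53 and 63). The peak between ska-3, a spindle and kinetochore gene, and rps-12 ranked 79 (65 and 94), with the summit 134 and 159 bp from the starts.

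A total of 41 shared peaks served 3 or more genes. The strongest, at rank 46 (19 in replicate 1 and 93 in replicate 2), lay 7 bp upstream of cux-7, 157 bp upstream of C07H6.2 and 611 bp upstream of lig-4, a DNA ligase of end joining. The peak at rank 176 lay at F10E9.5, F10E9.7 and F10E9.4, and the peak at rank 177 at W02H5.19, W02H5.16 and W02H5.2. The third gene stood farther off in each, at 611, 968 and 609 bp from the summit. The 2 peaks at overlapping 5′ ends were that of rpb-7, an RNA polymerase II subunit, with Y54E10BR.2 (rank 894) and that of wrb-1 with Y50D4A.4 (rank 1529).

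Genes on lists taken as broadly expressed carried shared summits more often than the 7.21% of all autosomal protein-coding genes. The lists, each labelled broad or restricted, were chosen with earlier results of these data known, and expression was not measured here. Over 13 lists of broadly expressed genes, 209 of 660 genes had a shared summit (31.7%, 95% exact interval 28.1 to 35.4). Over 8 lists of genes with restricted expression, 26 of 2384 did (1.09%, 0.714 to 1.59). In 12 of the 13 broad lists the interval lay above 7.21%, and in 5 of the 8 restricted lists it lay below. With replicate 2 alone the broad count was 11, without mitochondrial import, and with the stronger 50% of peaks it was 10, without DNA replication as well, each against that setting's own share of all genes. The exception among the broad lists was ubiquitin conjugation, with 7 of 55 genes. Neighbour distances differ between these groups, so the same shares were taken among genes with a divergent partner whose window overlaps theirs. There 55.3% of 358 broad-list genes had a shared summit (50 to 60.5), 4.37% of 595 restricted-list genes did (2.87 to 6.34), and the share over all such genes was 22.6%. List by list, the interval lay above 22.6% in 10 of the 13 broad lists and below it in 5 of the 8 restricted lists. Broad-list genes also more often had a promoter summit of any class, at 48.3% against 3.77% of restricted-list genes, so the contrast is not particular to shared summits. Beside these, it was 25.2% of genes in a divergent pair with overlapping windows. It was 9.28% of genes whose window overlaps no other gene's. The any-class share over all autosomal genes was not taken. Lists were matched by gene symbol and miss some genes of their kind, and 410 of the 630 shared peaks had no gene on any list.

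**Figure D4:**
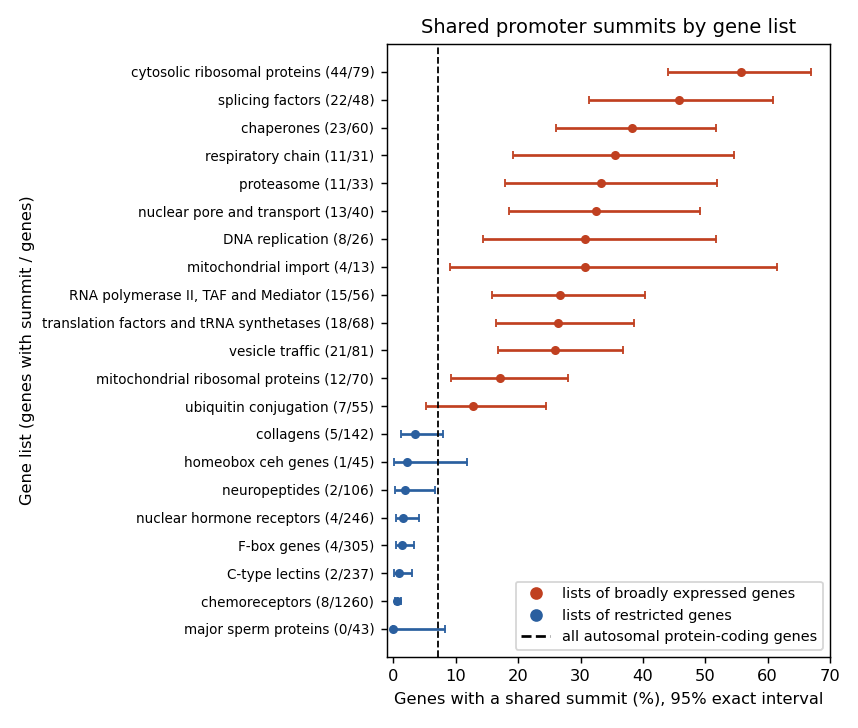
Share of the autosomal genes of each list that have a shared promoter summit, in percent, with 95% exact intervals. Red lists were taken as broadly expressed and blue lists as restricted. The dashed line is the 7.21% of all autosomal protein-coding genes, and all red points but none of the blue points stand above it.

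Among the lists, cytosolic ribosomal proteins stood at the top, with 44 of 79 genes (55.7%, 95% exact interval 44.1 to 66.9). Among those in a divergent pair it was 41 of 53 (77.4%, 63.8 to 87.7, beside 22.6% of all genes so placed). The shared peaks with a ribosomal gene had a median rank of 1335, against 2449 for shared peaks with no listed gene. Single-gene peaks differed in the same direction, at 1669 for ribosomal genes and 3145 for genes on no list. Shared peaks with any broad-list gene had a median rank of 2096.5, and those with a restricted-list gene 1980. In 36 divergent peaks with a single ribosomal gene, the summit lay nearer the ribosomal start in 11 (30.6%, 16.4 to 48.1), and in 12 and 11 by the summits of replicates 1 and 2. The median distance was 312 bp to the ribosomal start and 189 bp to the partner's. At 19 single-gene peaks of ribosomal genes the median was 294 bp upstream, with quartiles of 256 and 350 bp. The quartiles at divergent peaks, 252 and 402 bp, overlapped these. Over all broad lists the summit was nearer the listed gene in 71 of 160 such divergent peaks (44.4%, 36.5 to 52.4).

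The partners of ribosomal genes had many roles. At rank 89 (198 and 62) rps-19 faced hsr-9, a gene of the DNA damage response, at 278 and 167 bp. At rank 234 rps-20 faced ekl-4, at 250 and 147 bp, and at rank 663 rpl-22 faced ify-1, the securin gene, at 244 and 193 bp. At rank 1103 rpl-5 faced col-38, a cuticle collagen, at 406 and 433 bp. At rank 1370 the summit was 575 bp upstream of rps-18 and 160 bp inside the start of sec-61.A, the pore of the endoplasmic reticulum translocon. The weakest of these peaks, at rank 5777, was 381 bp upstream of rpl-30 and just inside the start of pab-1, which encodes a poly(A)-binding protein. Ribosomal genes faced each other at 3 shared peaks: rps-14 with rpl-36 (rank 694), rps-10 with rpl-24.1 (rank 738) and rpl-39 with rps-30 (rank 2877).

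Genes of protein folding and degradation also had shared peaks. Shared summits were found at 23 of 60 chaperone genes (38.3%) and 11 of 33 proteasome genes (33.3%). A single peak joined both lists, at rank 131 (121 and 137), between rpn-3, a proteasome lid subunit, at 200 bp and the chaperone hsp-110 at 244 bp. The chaperonin gene cct-1 shared the peak at rank 81 with mig-5, a Dishevelled gene of Wnt signalling, at 232 and 188 bp. A weaker peak lay between hsp-16.2 and hsp-16.41, small heat-shock genes that face each other 221 bp apart, at rank 3340 (3028 and 3898). Near-identical copies of these genes exist and how the authors placed their reads is not given, so this peak is uncertain; the same holds for histone pairs and for eef-1A.1.

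Splicing factor genes had shared summits at 22 of 48 (45.8%, 95% exact interval 31.4 to 60.8). In 3 shared peaks both genes came from this list: rsp-1 with rsp-2, which encode serine and arginine rich splicing factors (rank 699), snr-3 with rsp-5 (rank 2518), and snu-13 with rsp-7 (rank 3166). Stronger peaks lay at prp-40 with clu-1 (rank 150, 184 and 431 bp) and at prp-19 with K10D2.5 (rank 351, 650 and 25 bp). Of genes for RNA polymerase II, TAF and Mediator subunits 15 of 56 (26.8%) had a shared summit, and of those in a divergent pair 13 of 16 did (81.2%, 54.4 to 96.0). Among them mdt-26 shared the peak at rank 413 with ift-43.

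Mitochondrial genes came from 3 lists. The respiratory chain list had shared summits at 11 of its 31 genes (35.5%, 95% exact interval 19.2 to 54.6). Among them were atp-1 with mcrs-1 (rank 262, and 263 and 268 in the replicates) and mev-1, of succinate dehydrogenase, with jmjd-4 (rank 498). The starts of mev-1 and jmjd-4 were 130 and 129 bp from the summit. NADH dehydrogenase genes at shared peaks such as ndua-5 (rank 421) and ndub-8 (rank 506) were not matched by this list, so the share covers the listed genes only. Mitochondrial ribosomal proteins had 12 of 70 (17.1%, 9.18 to 28.0). This interval overlapped that of the respiratory chain and lay below that of the cytosolic ribosomal genes. The strongest was mrps-7 with Y57G11C.3 at rank 437, and mrpl-1 with mrps-24 (rank 4515) was the pair with both genes on the list. The mitochondrial import list had 4 of 13, with timm-23 and F15D3.6 at rank 1215. The import gene ddp-1, at a same-strand peak of rank 112, was not matched by this list. With replicate 2 alone the list had 2 of 13 (15.4%, 1.92 to 45.4), an interval that reaches below the share of all genes.

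Translation factor and tRNA synthetase genes had 18 of 68 (26.5%), led by iff-2 with F54C9.14 (rank 90, and 113 and 89 in the replicates) and eef-1B.1 with aco-2, the mitochondrial aconitase (rank 113, and 94 and 135). The elongation factor gene eef-1A.1 faced rfc-4, a clamp loader subunit of DNA replication, at 370 and 171 bp (rank 149). DNA replication genes had 8 of 26, including cdc-6 with acin-1 (rank 454) and orc-5 with cyb-1, a mitotic cyclin (rank 1863). Nuclear pore and transport genes had 13 of 40, led by npp-3 with top-2, topoisomerase II (rank 419). Vesicle traffic genes had 21 of 81, including vps-32.1 with icd-1 (rank 356), and ubiquitin conjugation was led by ubq-2 with frg-1 (rank 467).

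Restricted genes with a shared summit were few, and most faced a gene of another kind. Chemoreceptors had 8 of 1260 genes (0.635%, 95% exact interval 0.275 to 1.25), led by sri-5 with rsr-1 (rank 318). F-box genes had 4 of 305 (1.31%), of which fbxb-85 shared the peak at rank 93 with hex-3, a hexosaminidase gene, at 61 and 198 bp. The F-box gene fbxa-90 had the summit 953 bp upstream, while efl-1, a transcription factor gene of the cell cycle, had it 186 bp upstream (rank 227). Nuclear hormone receptors had 4 of 246, with nhr-47 5 bp and dnj-19 391 bp from the summit at rank 231. Of 45 ceh homeobox genes 1 had a shared summit, ceh-38 with malt-1 (rank 500). Collagens had 5 of 142, neuropeptides 2 of 106 and C-type lectins 2 of 237. Major sperm proteins had 0 of 43, for which the exact interval reaches 8.22%.

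The same order held for pairs. Of divergent pairs with overlapping windows, 57.1% held a shared summit where both genes were on a broad list (20 of 35, 95% exact interval 39.4 to 73.7). It was 48.0% where 1 gene was on a broad list and the other on none (166 of 346), and 20% where neither was on a list (390 of 1950, 18.2 to 21.9), against the 21.2% of all pairs. With 1 restricted gene and 1 unlisted gene it was 6.52% (24 of 368). Of 129 pairs of restricted genes none held one, which allows up to 2.82%. Of 5 pairs of a broad and a restricted gene, 2 did.

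At same-strand peaks the summit lay upstream of both starts in 37 of 41. The rule also admits up to 200 bp past the first start. This is a larger part of the admitted sequence the farther apart the starts are. In 25 the genes followed each other in tandem, 23 of them with at most 500 bp between. In 12 a gene lay inside the other, and in 12 a gene was under 300 bp long; annotated genes as short as these can be separate small reading frames of uncertain status. The strongest peak, at rank 49 (33 and 65), lay 230 bp upstream of sec-61.G, a translocon subunit, followed after 114 bp by F32D8.13. At rank 92 (87 and 104) the summit was 59 bp upstream of egl-30, the Gq alpha subunit, whose span holds the short gene C53H9.4. At rank 112 (63 and 144) it was 149 bp upstream of ddp-1, of mitochondrial import, followed after 47 bp by ttc-7.

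Further tandem peaks lay 435 bp upstream of rps-28 and Y41D4B.4 (rank 164), 110 bp upstream of rpb-11 and W01G7.4 (rank 223), and 266 bp upstream of rpl-29 and thoc-7 (rank 790). The gaps between the genes of the first 2 pairs were 112 and 114 bp. The peaks at tub-2 with Y71G12A.5 (rank 162) and at pqn-51 with K11D12.14 (rank 218) were of the nested kind, with inner genes of 30 and 51 bp. A short gap of this kind is usual inside nematode operons. An operon annotation was not used, so which of these pairs are operons was not tested. In the tandem pairs the second gene stood farther from the summit, at 830 bp for F32D8.13, 690 bp for ttc-7 and 764 bp for W01G7.4. In the nested pairs named here it was close, at 178 bp for C53H9.4, 193 bp for Y71G12A.5 and 125 bp for K11D12.14. Across all nested peaks this distance reached 988 bp, for F48F5.8 inside fce-2 (rank 541).

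Some divergent intervals held a pair of summits. Of 561 nearest divergent pairs with a shared summit, 26 held 2 (4.63%, 95% exact interval 3.05 to 6.72) and none held 3. In 18 of the 26 both summits overlapped the same peak of each replicate, so the replicate lists do not separate them. In 5 each summit had a peak of its own in both replicates. The summits were 199 to 624 bp apart, with a median of 214 bp. Between ecps-1 and atx-2, the ataxin-2 gene, summits at rank 1098 and 1234 lay 57 bp from atx-2 and 200 bp from ecps-1, on starts 838 bp apart. This is among the 5, with ranks in the replicates of 1076 and 1111 for the first and 1152 and 1308 for the second. Between tim-1, a gene of chromosome cohesion, and Y75B8A.23, summits ranked 108 and 3955, and in each replicate both overlapped a single peak. The same was so for fib-1, the fibrillarin gene, with mut-15 (ranks 470 and 3064), and for rpl-2 with calf-1 (2692 and 4835). No pair was closer than 199 bp, and the part of the peak calling in this spacing was not tested.

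The windows around divergent summits were rich in G and C. The median G+C content within 50 bp of the summit was 45.5% at divergent summits, 43.6% at same-strand and at single-gene summits, and 35.6% in windows 300 bp to either side of divergent summits. At the midpoints of 2226 divergent pairs with no summit it was 33.7%. The stronger 50% of divergent peaks had a median of 47.5% and the weaker 50% one of 43.6%. Summits of either replicate gave 45.5%. Sequencing can favour or disfavour G+C rich fragments, and its part here was not tested.

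Taken over all divergent peaks, adenine and thymine were arranged in mirror image about the summit. On the plus strand, adenine made up 39.4% of bases 51 to 100 bp to the left of divergent summits and 27.0% 50 to 99 bp to the right. Thymine made up 26.7% on the left and 39.4% on the right. Read outward from the summit along the coding strand of each gene, thymine exceeded adenine by a median of 10 bases per 100 towards the plus-strand gene and 11 towards the minus-strand gene, counted 51 to 150 bp out. Thymine was in excess towards the plus-strand gene at 72.6% of divergent peaks and towards the minus-strand gene at 74.1%. Both sides had it at 313 of 587 (53.3%, 95% exact interval 49.2 to 57.4). By replicate 1 and replicate 2 summits the shares with both were 51.5% in each. Whether the sides go together within a peak was not tested. At single-gene peaks the median was 11 towards the gene and -3 away from it, and at same-strand peaks it was 18 and 2. At pairs with no summit it was 1 and 2 about the midpoint, where the position relative to each start differs. Thymine-rich stretches on the coding strand upstream of starts are a known feature of nematode promoters.

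**Figure D5:**
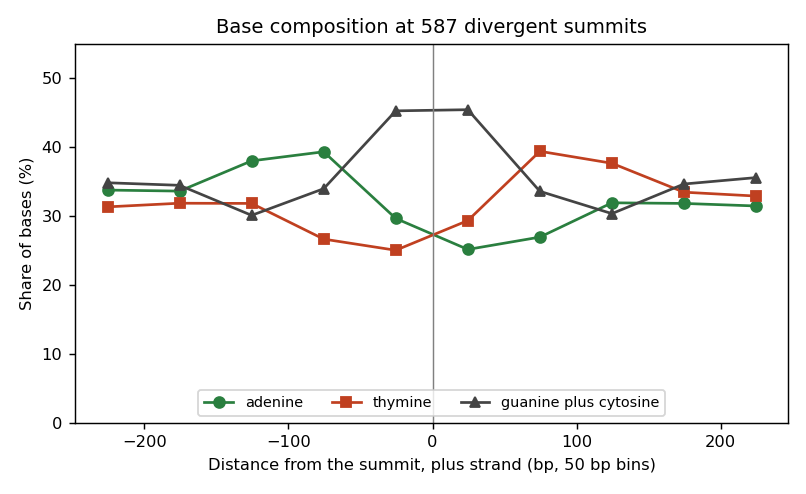
Base composition on the plus strand in bins of 50 bp around the 587 divergent summits: share of adenine, of thymine, and of guanine plus cytosine, in percent, against distance from the summit in bp. Guanine plus cytosine is highest at the summit, adenine is high on the left (39.4%) and thymine on the right (39.4%).

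Short words made of G and C gathered at the summits. GCGCGC, which reads the same on both strands, was found within 50 bp of the summit at 74 of 587 divergent summits (12.6%, 95% exact interval 10 to 15.6) and at 7.54% of single-gene summits (6.17 to 9.09). It was found in 0.511% and 0.681% of the windows 300 bp to the left and right, at 1.93% of midpoints of pairs with no summit and in 1.39% of windows centred 200 bp upstream of all autosomal gene starts. None of the 41 same-strand windows held it. The stronger 50% of divergent peaks had it at 16.4% and the weaker 50% at 8.84%. By the summits of replicate 1 and 2 the shares were 11.8% and 12.6%. Of the strong divergent windows printed first above, which are not all those of their ranks, those of tasp-1 and of hsp-60 hold it. Of the 8 palindromes of 6 letters made only of C and G, compared after this result was seen, CGCGCG overlaps it and came next, at 8.52%, and the other 6 were at 3.41% or less.

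CCGCCC was found at 8.35% of divergent and 6.41% of single-gene summits, against 2.34% at pairs with no summit and 2.22% of all promoter windows. CTCTCT and GAGACG went the other way between the classes. CTCTCT was at 12.9% of divergent summits (95% exact interval 10.3 to 15.9) and 17.7% of single-gene summits (15.7 to 19.9), with 4.40% at pairs with no summit. GAGACG was at 10.7% (8.35 to 13.5) and 15.5% (13.6 to 17.6), with 3.19%. In both replicates the divergent share of each of these was below the single-gene share, at 13.6% and 11.7% against 18.8% and 17.8% for CTCTCT. All 4 words were more frequent at divergent summits than at divergent pairs with no summit and than in all promoter windows (5.78% for CTCTCT and 3.50% for GAGACG). G+C content differs between these sets of windows, and its part in these differences was not tested.

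Words rich in A and T were less frequent at the summits than beside them. TTTCAG, the form of a splice acceptor site, was at 9.71% of divergent summits and at 24.5% and 29.8% of the windows to either side. TATAAA was at 5.79% against 11.9% and 13.1%, and TGATAA, the core of a GATA factor site, at 2.90% against 9.54% and 11.1%. Words of the kind homeodomains bind were not gathered at these summits. TAATTA was at 3.92% of divergent summits, at 6.2% of pairs with no summit and at 6.07% of all promoter windows, and TAATTG was at 3.92%, 8.76% and 8.92%. Facing copies of TAAT and ATTA, separated by 2 bases or by 3, the form that paired-like homeodomains can bind as dimers, were found at 2 divergent summits for each spacing. These letters are a description of short windows and say nothing of where DSC-1 binds.

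When all 2080 words of 6 letters were ordered by their share at divergent summits minus that at divergent pairs with no summit, the first were again rich in G and C. This order was chosen on these windows and is a description. ACGCGC led, at 19.4% of divergent summits against 2.43% of pairs with no summit, and was at 12% of single-gene and 12.2% of same-strand summits. GCGCAC followed, at 18.1% against 2.43%, with 8.14% of single-gene and 19.5% of same-strand summits. GAGCGC came next, at 17.2% against 2.16%, and CGCTCC was at place 7, at 14.7% against 1.53%. The summits of replicate 1 and replicate 2 gave 19.8% and 20% for ACGCGC, and 17.6% and 19.5% for GCGCAC. In this order the palindrome GCGCGC was at place 18. Words of this list overlap one another, so they are not separate counts.

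Few peaks lay close to the edge of the window, but larger changes of the window moved the number of shared peaks. It was 415 with 500 bp upstream to 100 bp downstream and 795 with 1500 bp upstream, against 630. Within 20 bp of the edge 13 shared peaks lay inside and 8 peaks lay outside. Just inside were the peaks at ril-1 and hda-1 (0 bp from the edge, rank 5680), fipr-20 and H14A12.3 (0 bp, rank 6215), and ctns-1 and cdc-48.2 (4 bp, rank 5860). Just outside were those at F53C11.4 and F53C11.5 (4 bp, rank 6160), mys-1 and VC5.2 (6 bp, rank 1778), and tag-281 and tag-280 (10 bp, rank 983).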

How the data were processed

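Chromatin immunoprecipitation was measured in 2 biological replicates of 1 group. Per the labels and the deposited file list, the authors called peaks for each replicate and for the pooled replicates and kept reproducible peaks by irreproducible discovery rate (IDR). Aligner, peak caller and threshold: not given in the sources used here. The values used from the deposited lists were the signal, whose scale is not stated, the −log10 q-value, and the summit offset of each peak. Depth is unknown, because no read counts were given. The ce10 lists were not used.

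From these lists, summits were placed in windows of 1000 bp upstream to 200 bp downstream of protein-coding starts (Ensembl release 115, WBcel235, the build that ce11 names). Replicate peaks were matched by an overlap of at least 1 bp, and shares per replicate used its strongest peaks, equal in number to the IDR list. Sequences came from the RefSeq WBcel235 genome. Words were searched on both strands within 50 bp of the summit. Shares carry exact Clopper-Pearson intervals at 95%, which cover counting error only; peaks, pairs and genes are not replicates, and no test was run. Operon annotation was not used.

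The members, the 21 gene lists, the 15 words and the alternatives were chosen with earlier results of these data known. The genes named were taken from the 12 strongest divergent peaks, the 6 strongest same-strand peaks, the 3 strongest with 3 or more genes, the peaks at overlapping 5′ ends, up to 3 genes per list with their partner, pairs within 1 list, and the peaks at the window edge. Some genes that the rule selects are left out. The partners of further ribosomal genes, mig-5 with cct-1, the further tandem pairs, intervals with 2 summits and the ordered words were chosen after their values were seen. Alternatives were other windows, any transcript start, the stronger 50% of peaks, each replicate alone, tRNA neighbours kept and a word window of 100 bp to either side. The counting of peaks, pairs and words was tested on simulated data. Python 3.11.15, numpy 2.4.6, scipy 1.17.1 and matplotlib 3.10.9 were used.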

Additional observations from a re-analysis of the deposited data

How the results depend on the processing

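Most summary values kept their size under the alternatives. With a window of 500 bp upstream to 100 bp downstream there were 415 shared peaks and 10 same-strand peaks, 97.3% of shared peaks were divergent, 23.6% of divergent pairs held a summit and 17 restricted-list genes did. With 1500 bp upstream the values were 88 same-strand peaks, 88.7% divergent, 12.2% of same-strand pairs and 44 restricted-list genes. With any annotated transcript start 89.3% were divergent. The cause of these shifts was not tested. The stronger 50% of the list gave 403 shared peaks, 374 divergent and 27 same-strand, with 14.1% of divergent pairs, 6.63% of same-strand pairs and 17 restricted-list genes, as it has fewer peaks. The ratio of summit density stayed between 2.90 and 4.87, and shared peaks stood 8.12 to 13.2 percentile points above single-gene peaks by median signal, under every alternative run. With a single replicate there were 605 shared peaks (replicate 2 alone) and 643 (replicate 1 alone). The shares of all 15 words were higher within 100 bp of the summit, a longer window, 12 of them beyond the main interval. No paired analysis was possible because there is 1 group. Peak numbers may depend on depth, which is unknown.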

Other observations

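Starts of other kinds of genes lay near some shared peaks. A start of a gene annotated as ncRNA lay within 500 bp of 79 of 630 shared summits (12.5%, 95% exact interval 10.1 to 15.4) and of 154 of 1327 single-gene summits (11.6%, 9.93 to 13.4). A snoRNA start lay near 9 shared summits (1.43%) and 35 single-gene summits (2.64%), with overlapping intervals. A snRNA start lay near 2 and 14, and a miRNA start near 3 and 4. Pseudogene starts lay near 0 of 630 shared summits, which allows up to 0.584%, and near 12 of 1327 single-gene summits (0.904%, 0.468 to 1.57).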
